A study of Mus musculus with 10 samples.

Results

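The genes described here are 7 genes of endothelial cells, the cells that line blood vessels: Esm1, Esam, Pecam1, Kdr, Flt1, Tek and Tie1. They were taken by name: every probe whose only gene symbol in the platform annotation was one of the 7 was used, which gave 7 probes, 1 for each gene, among 21766 probes for 15063 named genes. The arrays compared pieces from the caudal and the rostral end of the mouse neocortex at E11.5, an early embryonic stage. MF1, an outbred stock, gave 3 pools on 6 arrays, and C57, an inbred strain, gave 2 pools on 4 arrays. A pool held cortex from 3 embryos, its caudal and rostral RNA shared each array in different dyes, Cy5 and Cy3, and a further array carried the same RNAs with the dyes exchanged. The labels name no mutation and no treatment for either strain.

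Vessels enter the embryonic neural wall as sprouts from a plexus on its surface, drawn by VEGF-A from the neural progenitors. The leading tip cell of a sprout senses VEGF-A through Kdr and secretes Esm1, while Flt1 binds VEGF-A and dampens the signal. Tek, the angiopoietin receptor, and its partner Tie1 act as the sprout matures, and Esam and Pecam1 are adhesion proteins at the contacts between endothelial cells.

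Each value is the log2 of the ratio between caudal and rostral RNA on 1 array, so a negative value means more RNA at the rostral end. Cy5 was read as the numerator of the deposited ratio, which is likely but is not stated with the values. Genes of known gradient bear on that reading: Nr2f1, a caudal nuclear receptor, had ratios of 1.85 ± 0.22 and 0.57 ± 0.20 at its probes, and Spry1, a target of rostral FGF signals, -1.28 ± 0.14 (SE, 5 pools). Emx2 and Pax6, further patterning genes of the neocortex, lay within 1 SE of 0 and do not bear on the reading. Emx2 stood at 0.10 ± 0.15, and Pax6 at 0.10 ± 0.17 and 0.02 ± 0.14 at its probes (SE). The other reading would turn every sign below together. A ratio gives no level, so neither the abundance of these transcripts nor the presence of the tissue's defining markers can be read from it; in mixed tissue a lower ratio can come from fewer endothelial cells or from less RNA in each cell. The array medians of the turned ratios ran from -0.45 to 0.67, so values relative to the array median are given beside the deposited ones. The MF1 arrays measured 13723 to 18288 probes each, and the C57 arrays 20191 to 20870. A difference between the strains therefore cannot be told apart from this difference between their arrays. Over all probes, arrays of the same dye order correlated at 0.021 to 0.438, and the turned ratios of the 2 arrays of a pool at -0.251 to 0.029.

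Esm1, a secreted proteoglycan known from tip cells, had negative ratios in 5 of 5 pools, which no other member had. All 5 pool values were below 0 for 0.728% of the probes measured on all 10 arrays, and relative to the array medians for 2.57%. On the MF1 arrays with caudal RNA in Cy5 its ratios were -0.53, -0.58 and -0.36, and on those with rostral RNA in Cy5 they were -1.02, -1.08 and -0.74. The C57 arrays gave -0.91 and 0.13 with caudal RNA in Cy5 and -1.04 and -0.66 with rostral RNA in Cy5. Of the 10 arrays, 9 lay below 0, and the exception was the array whose median ratio was the highest, 0.67. At least 9 of 10 arrays were below 0 for 0.74% of these 8924 probes.

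Relative to the array medians, Esm1 lay between -1.06 and -0.54 on all 10 arrays, with a mean of -0.72 and an SD of 0.16. Among the 8924 probes, 0.336% had all 10 values below the array medians. The centred pool means were -0.72 ± 0.17 in MF1 (SD, n = 3) and -0.71 ± 0.11 in C57 (SD, n = 2), so the strains lay closer together than the pools of either one.

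Averaged over both strains, the deposited Esm1 ratio was -0.67 ± 0.17 (SE, n = 5 pools), or 1.59-fold more rostral RNA. It did not pass limma's test over the 11855 probes that could be tested (unadjusted p = 0.0080, Benjamini-Hochberg adjusted p = 0.983), in which 0.0% of probes passed and 3.1% had an unadjusted p under 0.05, 1.98% positive and 1.11% negative. Relative to the array medians Esm1 had an unadjusted p of 0.0013 (adjusted p = 0.706), where 4.57% of probes had an unadjusted p under 0.05, 2.28% positive and 2.29% negative. In an exact sign-change permutation test of its 5 pool values the two-sided p was 0.0625, the smallest that 5 pools allow. When the 10 arrays were centred and fitted singly with a dye term and the pool as a random block, a choice made after seeing the data, Esm1 stood at -0.72 ± 0.09 with a limma adjusted p of 0.025, and 0.0675% of probes passed. The same fit without centring gave Esm1 a limma adjusted p of 0.299, and 0.00844% of probes passed. Both of these fits enter the arrays of a pool as separate values, so their p-values do not rest on the spread between 5 pools alone.

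**Figure D1:**
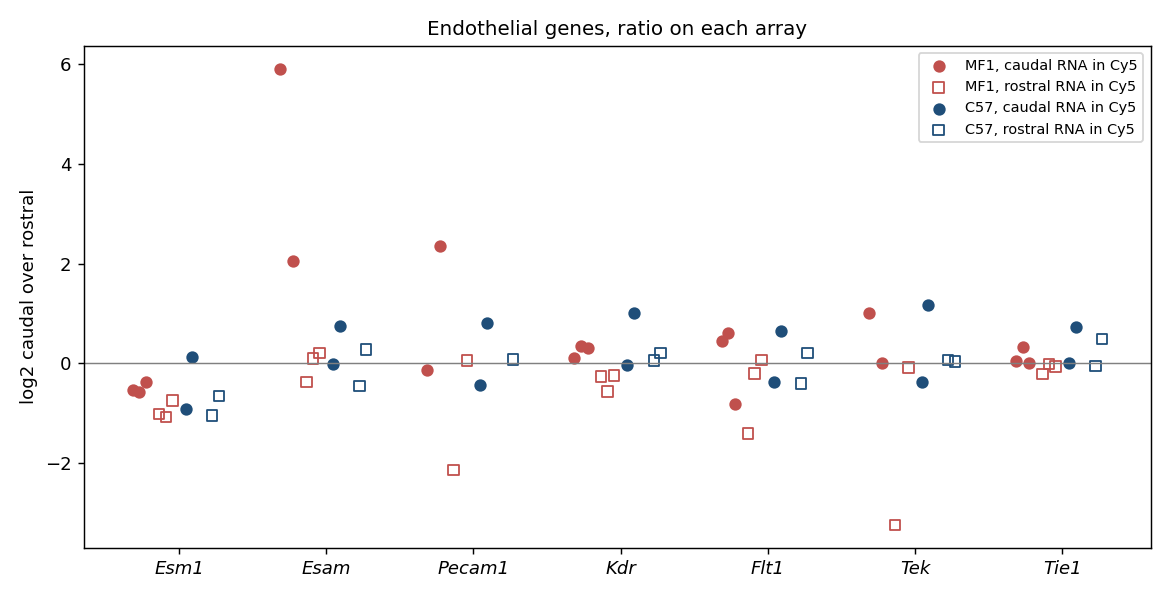
Deposited log2 ratios (y axis) of the 7 genes (x axis) on each array; filled circles are arrays with caudal RNA in Cy5, open squares those with rostral RNA in Cy5, in red for MF1 and blue for C57. Esm1 lies below 0 on 9 of 10 arrays, and single MF1 arrays reach 5.91 for Esam and -3.24 for Tek.

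**Figure D2:**
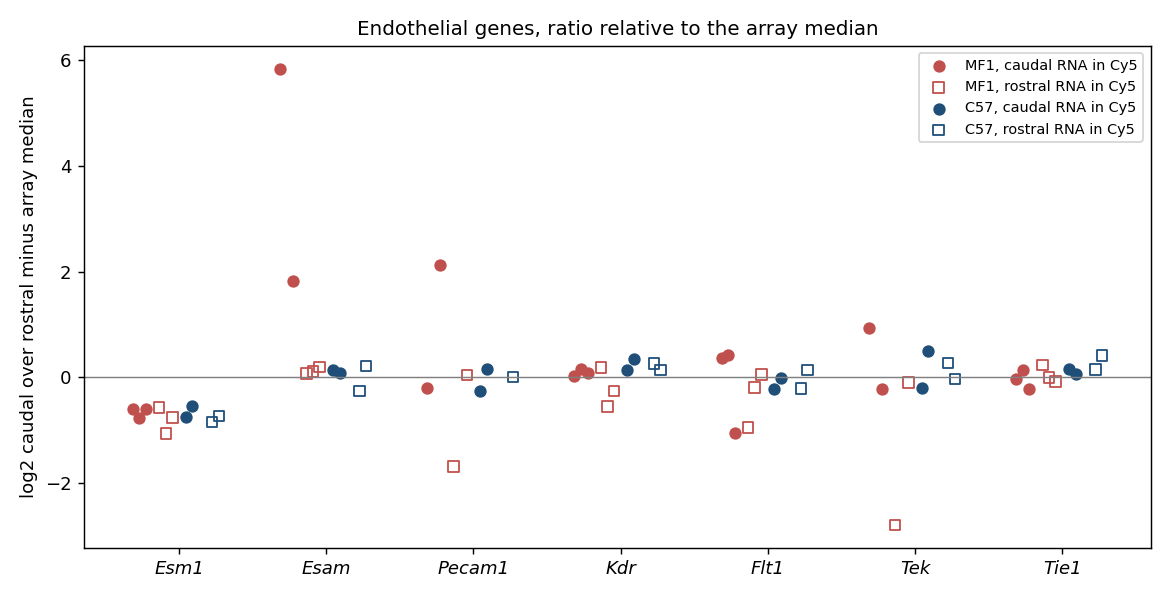
The same ratios minus the median ratio of their array (y axis, log2). Esm1 lies between -1.06 and -0.54 on all 10 arrays, while Kdr and Tie1 lie on both sides of 0.

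Set against other endothelial genes on the same array, where the array median cancels, Esm1 lay below Kdr and below Tie1 on 10 of 10 arrays each. The mean differences over the 5 pools were -0.77 ± 0.16 from Kdr and -0.81 ± 0.19 from Tie1 (SD), and -0.56 ± 0.34 from Flt1, below which it lay on 8 of 10 arrays. Each of these differences had an exact sign-change permutation p of 0.0625, the smallest that 5 pools allow. Esm1 had the lowest mean of the tested members in these same values, which favoured negative differences, so these p-values are no independent support. Esm1 also lay below Esam on all 9 arrays that measured both. Against Tek it was lower on 7 of 8 arrays and in 3 of 4 pools, by a mean of -0.47 ± 0.56 (SD, exact permutation p = 0.25), with 1 array 2.22 higher. Against Pecam1 it was lower on 6 of 7 arrays and in 2 of 3 pools, by a mean of -0.71 ± 1.06 (SD, exact permutation p = 0.5), with 1 array 1.12 higher.

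The window from 250 bases before to 50 bases after the gene start is shown for Esm1, whose ratios were the most rostral, and for Tie1, whose array ratios had the smallest range; the sequences are from RefSeq, build GRCm38.p6, 5′ to 3′ on the gene's strand. The Esm1 window is chr13:113209409-113209708 on the plus strand and the Tie1 window chr4:118489800-118490099 on the minus strand. Capitals mark GGAA, the core of sites bound by ETS factors, on either strand.
Esm1: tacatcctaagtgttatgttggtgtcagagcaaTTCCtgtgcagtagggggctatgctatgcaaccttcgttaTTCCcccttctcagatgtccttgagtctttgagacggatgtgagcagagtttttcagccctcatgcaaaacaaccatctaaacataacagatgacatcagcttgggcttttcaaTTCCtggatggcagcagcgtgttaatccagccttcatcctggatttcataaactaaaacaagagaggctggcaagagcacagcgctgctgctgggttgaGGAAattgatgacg
Tie1: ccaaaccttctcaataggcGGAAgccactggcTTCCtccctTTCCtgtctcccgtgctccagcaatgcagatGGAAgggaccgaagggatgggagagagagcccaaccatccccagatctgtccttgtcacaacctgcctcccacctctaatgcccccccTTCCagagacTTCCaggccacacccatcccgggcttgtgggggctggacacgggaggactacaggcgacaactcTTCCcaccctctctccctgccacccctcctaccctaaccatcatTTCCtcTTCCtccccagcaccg
GGAA occurred 4 times in the Esm1 window and 9 times in the Tie1 window. In the windows of the other members that RefSeq matched it occurred 5 times for Kdr, 4 times for Flt1 and 2 times for Tek; 5 of 7 members had a window. The longer GGAAG, which contains GGAA, occurred 0 times for Esm1 and for Tek, 1 time for Kdr, 3 times for Flt1 and 7 times for Tie1. Of all 32851 windows, 96.0% held GGAA and 71.4% GGAAG, so matches are common, and the arrays measured no binding.

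The junction gene Esam had the most caudal mean ratio of the members, but single arrays made it. The MF1 arrays with caudal RNA in Cy5 gave 5.91 and 2.05, and pool 2 had no value in that order. With rostral RNA in Cy5 the MF1 arrays gave -0.38, 0.10 and 0.21. The C57 arrays gave -0.01 and 0.75 with caudal RNA in Cy5 and -0.46 and 0.28 with rostral RNA in Cy5. Thus the high values belonged to MF1 in 1 dye order, and the remaining 7 arrays lay between -0.46 and 0.75.

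Over the 4 pools with both orders, Esam averaged 1.04 ± 0.33 (SE), 2.06-fold (limma unadjusted p = 0.028, adjusted p = 0.983). In an exact sign-change permutation test of these 4 pool values the two-sided p was 0.25, where the smallest possible was 0.125. When a pool with 1 measured dye order was kept, the mean was 0.74 ± 0.44 (SE, limma unadjusted p = 0.155). The mean of the strains was 0.64 without MF1 pool 1 and 1.45 without MF1 pool 3. With only the arrays that carried rostral RNA in Cy5 it was -0.05 ± 0.19 (SE). The MF1 pool mean was 1.95 ± 1.16 and that of C57 0.14 ± 0.53 (SD, n = 2 each). The difference of MF1 minus C57 was 1.81 ± 0.67 (limma unadjusted p = 0.045, adjusted p = 0.999), in a contrast where 1.88% of probes had an unadjusted p under 0.05, 0.548% with a positive difference, and 0.0% an adjusted one. That difference was 3.61 with only caudal RNA in Cy5 and 0.07 with only rostral RNA in Cy5.

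Pecam1, an adhesion receptor used as a marker of all endothelium, was measured on 7 arrays and was not tested, because only 1 C57 pool had both dye orders. Its ratios with caudal RNA in Cy5 were -0.12 and 2.36 in MF1, and -0.43 and 0.82 in C57. With rostral RNA in Cy5 they were -2.13 and 0.06 in MF1 and 0.08 in C57. The values lay on both sides of 0 in both strains. With the requirement lowered to 1 pool of each strain, its mean was 0.25 ± 0.54 (SE, n = 3 pools), with a limma adjusted p of 0.984 over 16208 probes.

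Neither VEGF receptor passed the test over both strains. Kdr, the main signalling receptor for VEGF-A, had pool means of -0.05 ± 0.08 in MF1 (SD, n = 3) and 0.32 ± 0.42 in C57 (SD, n = 2). On the MF1 arrays the sign of its deposited ratios, which carry shifts of whole arrays, followed the dye. They were 0.10, 0.34 and 0.31 with caudal RNA in Cy5, against -0.26, -0.56 and -0.25 with rostral RNA in Cy5. The C57 arrays gave -0.02 and 1.02 with caudal RNA in Cy5, and 0.06 and 0.21 with rostral RNA in Cy5. The mean over both strains was 0.13 ± 0.16 (SE, limma unadjusted p = 0.43), and 0.08 ± 0.12 relative to the array medians. Relative to these medians its pool means were -0.06 ± 0.16 in MF1 (SD, n = 3) and 0.22 ± 0.03 in C57 (SD, n = 2), where all 4 arrays lay between 0.14 and 0.35. The centred MF1 arrays gave 0.03, 0.15 and 0.08 with caudal RNA in Cy5. With rostral RNA in Cy5 they gave 0.19, -0.55 and -0.26, so in pool 1 both orders were positive. The centred difference of MF1 minus C57 was -0.28 ± 0.24 (SE, limma adjusted p = 0.999).

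Flt1, which binds VEGF-A and also occurs as a soluble decoy, was more variable. Its ratios in MF1 were 0.45, 0.60 and -0.81 with caudal RNA in Cy5, and -1.40, -0.20 and 0.07 with rostral RNA in Cy5. In C57 they were -0.38 and 0.65, and -0.41 and 0.21, in the same dye orders. The groups overlapped throughout, and the mean over both strains was -0.10 ± 0.20 (SE, n = 5 pools, limma unadjusted p = 0.64).

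The Tie receptors also had means within their errors of 0. Tek, the receptor for angiopoietins, was measured on 8 arrays, with 1.02 and 0.003 in MF1 and -0.37 and 1.17 in C57 when caudal RNA was in Cy5. With rostral RNA in Cy5 it was -3.24 and -0.08 in MF1 and 0.07 and 0.04 in C57. Its mean over 4 pools was -0.17 ± 0.27 (SE, limma unadjusted p = 0.55), and 0.10 without MF1 pool 1, which holds the array at -3.24.

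Tie1, its partner receptor, had pool means of 0.02 ± 0.13 in MF1 (SD, n = 3) and 0.29 ± 0.45 in C57 (SD, n = 2). Its ratios ran from -0.21 to 0.34 on the MF1 arrays and from -0.05 to 0.74 on the C57 arrays. The mean over both strains was 0.16 ± 0.16 (SE, n = 5 pools, limma unadjusted p = 0.37), and 0.11 ± 0.12 relative to the array medians.

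In the order of their means, the tested members ran from Esam at 1.04 through Tie1 at 0.16, Kdr at 0.13, Flt1 at -0.10 and Tek at -0.17 to Esm1 at -0.67. From Tie1 to Tek, neighbours differed by less than the sum of their standard errors, while Esam and Esm1 stood farther than that from their neighbours. These sums leave out that the genes share arrays and pools. Paired by pool, Esm1 minus Tek averaged -0.47 ± 0.56 (SD, 4 pools), and Esm1 was lower in 3 of them, so the pairs do not set Esm1 apart from Tek. The 6 tested members had 3 positive and 3 negative means and a median of 0.02, against 69.4% positive and a median of 0.09 over all tested probes. Esam and Esm1, at opposite ends, were the only members with a limma unadjusted p under 0.05. Of all tested probes 3.1% had such a p, 1.98% positive and 1.11% negative. Neither gene passed the adjusted test (limma adjusted p = 0.983 for each).

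The strains could be compared for the same 6 genes. The differences of MF1 minus C57 were -0.10 ± 0.34 for Esm1, -0.37 ± 0.31 for Kdr, -0.23 ± 0.40 for Flt1, -0.80 ± 0.53 for Tek and -0.28 ± 0.32 for Tie1 (SE), beside that of Esam above. None passed limma's test, where the adjusted p was 0.999 for each. The median difference over all probes was -0.10, which was also the value of Esm1.

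In the deposited ratios, which carry shifts of whole arrays, the dye order moved most pairs of the members in 1 direction. Over all probes, the median of caudal in Cy5 minus rostral in Cy5 ran from 0.08 to 0.60 in the pools. Of 31 pairs of arrays in which a member was measured in both orders, 28 had the higher caudal over rostral ratio with caudal RNA in Cy5, or 90.3%; over all probes it was 70.9% of 78061 pairs. The mean difference between the orders, caudal in Cy5 minus rostral in Cy5, was 2.26 ± 0.83 for Esam, 1.26 ± 0.83 for Tek, 0.49 ± 0.20 for Kdr, 0.46 ± 0.16 for Esm1, 0.41 ± 0.43 for Flt1 and 0.19 ± 0.14 for Tie1 (SE). The median over all tested probes was 0.36, and Kdr, Esm1 and Flt1 each lay within 1 SE of it. Relative to the array medians the difference was 0.14 ± 0.12 for Esm1 and 0.17 ± 0.18 for Kdr, and that of Tie1 turned to -0.13 ± 0.14.

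None of the 11855 probes passed limma's test of the dye order (0.0%), while 26.7% had an unadjusted p under 0.05, 24.0% with a positive difference, Esm1 among them at 0.039 (adjusted p = 0.179). Esam had an unadjusted p of 0.057. In Esm1 both orders gave a rostral mean, at -0.45 ± 0.38 with caudal RNA in Cy5 and -0.91 ± 0.19 with rostral RNA in Cy5 (SD, n = 5 arrays each).

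**Figure D3:**
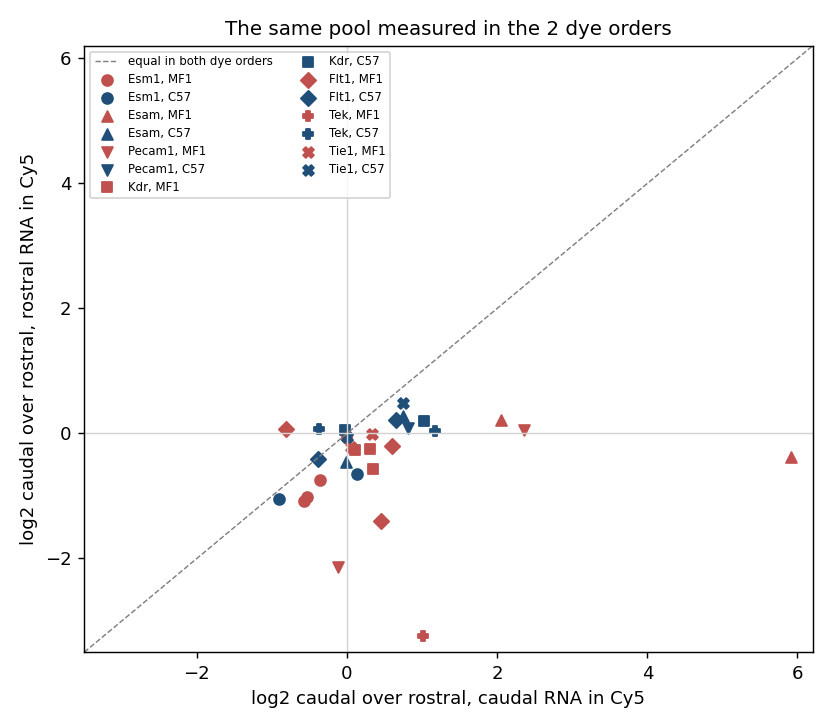
Log2 ratios of the same pool with caudal RNA in Cy5 (x axis) and with rostral RNA in Cy5 (y axis), 1 symbol for each gene, red for MF1 and blue for C57; the dashed line marks equal values. Of 31 points, 28 lie below the line, and the 5 points of Esm1 lie below 0 on the y axis.

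**Figure D4:**
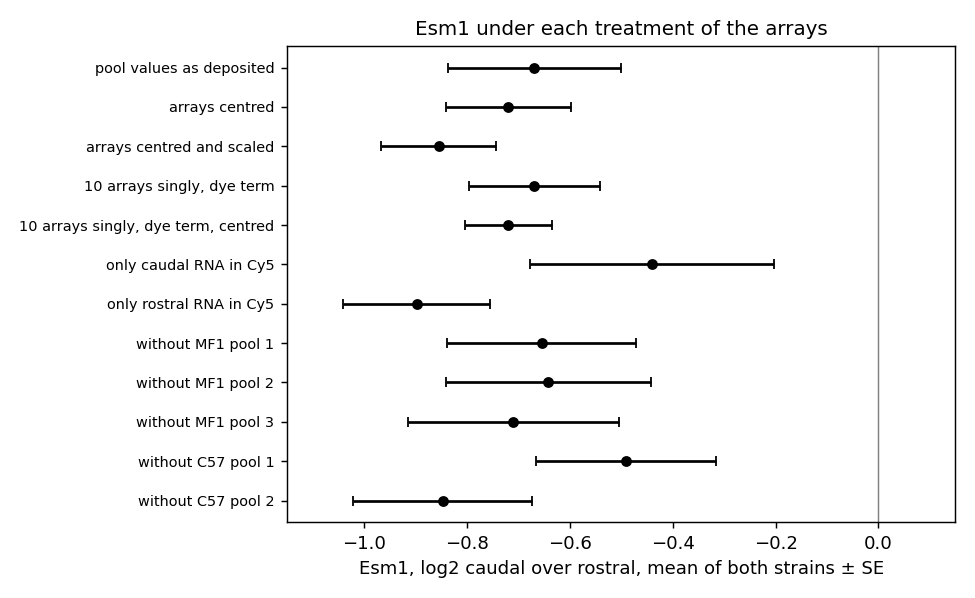
Mean log2 ratio of Esm1 over both strains (x axis, ± SE) under 12 treatments of the arrays (y axis). The means lie between -0.90, with rostral RNA in Cy5 only, and -0.44, with caudal RNA in Cy5 only.

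Lists of other vessel genes are read against the 69.4% of all tested probes that were positive and their median of 0.09; no direction of a list was tested. Of the 18 tested genes of a list of further endothelial markers, 12 were positive (66.7%) and 6 negative, with a median of 0.04. Sox18, a transcription factor of endothelial cells, had the smallest p among them, at 1.10 ± 0.23 from 4 pools (limma unadjusted p = 0.0058, adjusted p = 0.983); its arrays ran from 0.05 to 4.45 in MF1 and from -1.55 to 0.56 in C57. Fli1, an ETS factor, had the smallest p on the negative side, at -0.17 ± 0.17.

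Genes for VEGF, angiopoietin and Notch signals gave 12 positive (60.0%) and 8 negative probes, with a median of 0.14. Pgf, a ligand of Flt1, had a mean of 0.80 ± 0.22 from 4 pools (unadjusted p = 0.017), with arrays from 0.34 to 2.89 in MF1 and from -1.33 to 0.90 in C57. Efnb2, an ephrin of arterial endothelium that neural progenitors also express, had -0.64 ± 0.16 (limma unadjusted p = 0.0074, adjusted p = 0.983). Like Esm1, Efnb2 was rostral in all 5 pools, at -0.40, -0.82 and -0.67 in MF1 and -0.90 and -0.41 in C57. It was below 0 on 10 of 10 arrays. Among the 8924 probes measured on all 10 arrays, 0.728% had all 5 pool values below 0 and 0.213% all 10 array values. Efnb2 was named for the smallest p on the negative side of its list in these same values, which favoured such counts.

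A list of barrier genes and of WNT7 signals that act on brain vessels was positive at 7 of 7 tested probes, of 12 on the array. Their median was 0.18, with values from 0.07 to 0.39, the highest being that of Wnt7a. The list is not limited to genes expressed by vessel cells. Relative to the array medians the pool medians of this list were 0.20, 0.12 and 0.14 in MF1 and 0.24 and 0.10 in C57. The smallest p was that of Tjp1, a tight junction scaffold, at 0.25 ± 0.17. Basement membrane genes were positive at 5 of 6 probes (83.3%, median 0.13), with Lamb1, a laminin chain, at 0.52 ± 0.18 and Nid2, a nidogen, at -0.13 ± 0.18. Pericyte and smooth muscle genes were positive at 2 of 5 probes (40.0%, median -0.01), with Acta2, smooth muscle actin, at 0.69 ± 0.27 and Pdgfb, the ligand that recruits pericytes, at -0.23 ± 0.27. In none of these lists did a probe pass the adjusted test.

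Markers of other cells were set beside the members, with the same 69.4% as background. Blood genes were positive at 7 of 7 probes, with a median of 0.35; their pool medians were -0.05, 0.15 and 0.18 in MF1 and 0.64 and 0.38 in C57. The pool medians of the members were -0.28, 0.03 and -0.03 in MF1 and -0.19 and 0.56 in C57. The embryonic globin Hbb-y stood at 0.52 ± 0.15. Macrophage genes were positive at 3 of 3 probes (median 0.33, Fcer1g 0.33 ± 0.21). Genes of meninges and mesenchyme were positive at 3 of 6 probes (median -0.06), with Lum, a matrix proteoglycan, at 0.77 ± 0.36 and Col3a1, a fibrillar collagen, at -0.44 ± 0.29. The Col3a1 mean holds 1 array at -3.52, MF1 pool 2 with caudal RNA in Cy5, where the other dye order gave 0.008. Its remaining arrays lay between -0.88 and 0.50. Neocortical genes were positive at 8 of 10 probes (median 0.10), with Lhx2 at 0.32 ± 0.15 and Sox2 at -0.16 ± 0.14. The part of these cells in the ratios of the members was not tested.

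**Figure D5:**
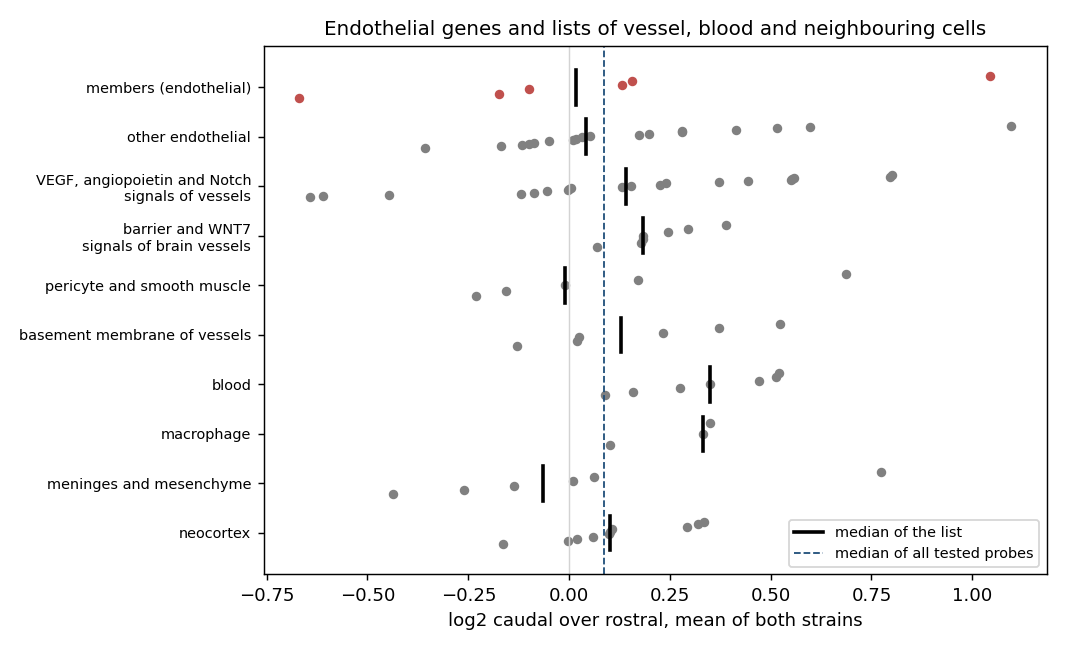
Mean log2 ratios over both strains (x axis) of the tested probes of each list (y axis), with the 6 tested members in red, list medians as black bars and the median of all tested probes, 0.09, as a dashed line. The members spread from -0.67 to 1.04 around a median of 0.02.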

How the data were processed

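Each array held caudal and rostral RNA of 1 pool in 2 dyes. Trizol extraction and amplification preceded labelling, per the labels' protocols, and amplification can distort ratios. The deposited values are log2 ratios of both channels, a unit read from the values. How the authors scanned, background-corrected and normalized the arrays is not given here; the array medians differ, so the deposited ratios were not centred on 0. The 436 values at the ceiling of 16.61 and null values were treated as missing, and 232 control spots were left out. Caudal was put over rostral by the dye labels, and each dye-swapped pair gave 1 mean per pool. Testing required 2 or more pools of each strain with both dye orders, which 11855 of 21766 probes had. Probes were named from the platform annotation: 16632 had 1 symbol, 139 several and 4995 none.

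The linear model of limma 3.58.1 (R 4.3.3) was fitted to the pool means (a coefficient for each strain, eBayes, two-sided), with Benjamini-Hochberg adjustment over all tested probes and a threshold of 0.05; the dye order was tested on the difference between the 2 arrays of a pool. The p-values of this fit measure the spread between pools, moderated by eBayes with the variances of all tested probes. The SEs of the limma fits are moderated in the same way. For the mean of both strains the prior held 2.69 degrees of freedom, out of a total of 4.69 for Esam. The number of pools, rather than of arrays, limits the precision. In simulated data of 11855 probes with 200 changed, this fit recovered 0 at a log2 change of 0.5, 0 at 1 and 152 at 2, with 9 false calls at the last. The members, lists and naming rule (every member, and the smallest p in each direction of each list) were chosen with earlier results of these data known. Pecam1 missed the requirement and was fitted only where an alternative relaxed it. Alternatives were other centring and scaling, single dye orders, arrays fitted singly, other filters, robust eBayes, a block for the pool number and leaving out each pool. Figures were drawn with matplotlib 3.10.9.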

Additional observations from a re-analysis of the deposited data

How the results depend on the processing

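The mean Esm1 ratio over both strains was negative under all 12 alternatives and without each of the 5 pools, with values from -0.90 to -0.44. Without single pools it ran from -0.85 to -0.49. Its 1 probe was measured on all 10 arrays. Other filters, kept ceiling values, averaged probes, robust eBayes and single arrays without centring therefore left the mean at -0.67 and could not turn its sign. Esm1 passed the threshold only with 10 centred arrays fitted singly (limma adjusted p = 0.025). The number of probes called for the mean of both strains was 0; it was 1 when the 10 arrays entered the fit one by one, 8 when these were also centred (chosen after seeing the data), and 1 with centred and scaled arrays. For the dye order it was 0, but 2 with centred arrays, 11 with centred and scaled arrays and 2 over probes measured on all 10 arrays. For MF1 minus C57 it was 0 under every alternative run.
Centring turned the split of probes with a limma unadjusted p under 0.05 to 270 positive and 272 negative, against 235 and 132 with the deposited ratios. Without MF1 pool 1 the number of such probes was 1023 of 9408 tested, against 367 of 11855.

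The other members turned sign in places; the cause was not tested. With only rostral RNA in Cy5 the means of Esam and Kdr were -0.053 and -0.11. With only caudal RNA in Cy5 those of Flt1 and Tek were 0.11 and 0.45, and the Tek strain difference was 0.11. Without single pools Kdr ran from -0.017 to 0.28, Flt1 from -0.30 to 0.11, Tek from -0.36 to 0.015 and Tie1 from -0.0042 to 0.32. The strain differences without single pools ran from -0.45 to 0.26 for Esm1, from -0.64 to 0.18 for Flt1 and from -0.60 to 0.043 for Tie1, and that of Esm1 was 0.49 with centred and scaled arrays. The dye order difference of Tie1 was -0.13 with centred and -0.21 with centred and scaled arrays. Esam and Tek had no test without either of their MF1 pools, since 1 was left.

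Pool numbers are shared by the strains but pair nothing in the labels; deviations of same-numbered pools correlated at 0.149 and -0.022 across probes. With the pool number as a replicate block the strain difference was -0.18 for Esm1 and 3.0 ± 0.36 (SE, limma adjusted p = 0.887) for Esam, against 1.81 without the block; the Esam value rests on pool 1, the 1 number with both dye orders in both strains. With the block 0 probes were called, and 592 against 223 had an unadjusted p under 0.05.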

Other observations

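Over the 10 deposited array ratios, the profiles most like those of the members, among 7531 named probes measured on all arrays, were those of Agpat1 (Pearson r = 0.979) and Mettl1 (0.974) for Esm1, Ascl3 (0.965) and Nid2 (0.964) for Kdr, Grifin (0.949) and Gins4 (0.939) for Flt1, and Spaca7 (0.977) and Man2c1 (0.958) for Tie1. Nid2 encodes a basement membrane protein. The arrays share pools and dye orders, and the members also followed the array medians, at r = 0.913 for Esm1, 0.818 for Tie1, 0.792 for Kdr and 0.705 for Flt1. Between members, r was 0.893 for Esm1 and Kdr, 0.812 for Kdr and Tie1, 0.758 for Esm1 and Tie1, 0.733 for Flt1 and Tie1, 0.54 for Esm1 and Flt1 and 0.5 for Flt1 and Kdr.

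The mean of Lamb1 held 1 array apart from the rest: C57 pool 1 gave -1.11 with caudal RNA in Cy5 and 3.37 with rostral RNA in Cy5, while the other 8 arrays lay between -0.52 and 0.89. Acta2 was positive in 4 of 4 pools but stood at 1.77 with caudal RNA in Cy5 and -0.996 with rostral RNA in Cy5 in MF1 pool 1. In the same pool Pdgfb stood at 1.26 with caudal RNA in Cy5 and -2.72 with rostral RNA in Cy5.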
